A study of Mus musculus with 10 samples.

Results

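Meox1, Meox2, Twist1, Twist2, Prrx1, Tbx18, Tcf21, Osr1, Osr2 and Nr2f2 encode transcription factors of embryonic mesenchyme, several of them known from the stroma around the urogenital ducts. They were taken by name, with earlier results of these data known. Each of the 10 is read by 1 probe set annotated with its symbol alone. The array has 22206 probe sets, which together name 19505 genes. RNA came from mouse Wolffian ducts removed at 16.5 days post-coitum and held in culture at an air-liquid interface for 72 h, in medium without compound (vehicle, 3 arrays), with 0.5 µM SAG (4 arrays) or with 25 µM cyclopamine (3 arrays). SAG is an agonist of Smoothened, the membrane protein that turns hedgehog signalling on inside the cell. Cyclopamine, an alkaloid from corn lilies, blocks the same protein. The labels' protocols speak of Wolffian ducts while the sample titles say pronephros, and the controls are labelled as culture medium alone. For strain, sex, ducts per sample and the compounds' solvent, nothing is given in the sources used here. All values below are the deposited log2 signals or differences between them, so a difference of 1 is a doubling of signal, and levels of different genes are not compared because each probe set has its own response.

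In the developing urogenital tract, hedgehog ligands made by epithelium act on the surrounding mesenchyme, where GLI transcription factors carry the signal to target genes. Mesenchymal transcription factors set the identity of these cells and their choice between fibroblast, smooth muscle and other fates. Homeobox, basic helix-loop-helix (bHLH), T-box, zinc finger and nuclear receptor proteins all occur among them, and the bHLH factors bind the E-box motif CANNTG as dimers with ubiquitous E proteins.

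The arrays had medians of 7.55 to 7.70. Between arrays of one group, the SD over probe sets of their difference was 0.39 to 0.44 for vehicle, 0.35 to 0.47 for SAG and 0.45 to 0.60 for cyclopamine. As a check of the compounds, the hedgehog targets Gli1, Ptch1 and Hhip rose with SAG (by 1.51, 1.56 and 4.55) and fell with cyclopamine (-6.93, -4.12 and -5.95), each with limma adjusted p at or under 0.0374. The SAG call of Gli1 ended in 7 of the 10 fits with an array left out, all but those without vehicle replicate 1 or cyclopamine replicate 1 or 2 (up to 0.204). For the tissue, all 15 measured duct epithelium markers and all 14 measured stromal receptor and matrix genes averaged above 5.19, the lower quartile over all probe sets. So did all 11 smooth muscle, 11 macrophage and 9 coelomic lining markers, so this level does not single out duct and stroma. Of 10 somite and skeletal muscle genes, 4 lay below that quartile (Myf5, Myod1, Pax7 and Myh3) and 6 above it, among them Pax3 and Des. SAG replicate 1 stood apart in the 7 genes of gonad and adrenal steroid cells, with a list mean relative to vehicle of 1.74 against -0.31 to -0.04 on the other SAG arrays and -0.35 to 0.65 on the vehicle arrays. The labels number the replicates without saying whether they came from separate litters or cultures, so p-values measure the spread between these arrays, which may be technical. Precision is limited by having 3 or 4 arrays in a group.

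Of the 10 factors, 1 rose and 9 did not pass with SAG against vehicle, where 0.45% of all probe sets rose and 0.279% fell (limma, adjusted p at or under 0.05 over all probe sets). With cyclopamine against vehicle 2 fell and 8 did not pass, against 2.95% of probe sets lower and 2.17% higher. Between SAG and cyclopamine, 5 factors were higher with SAG and 5 did not pass, against 5.42% of probe sets higher and 5.92% lower. Meox2 was the factor raised by the agonist, Twist2 and Tcf21 were those lowered by the inhibitor, and Osr2 and Nr2f2 passed between the compounds but not against vehicle. The other 3 that passed between the compounds were Meox2, Twist2 and Tcf21. The median change of the 10 factors was 0.14 with SAG and -0.44 with cyclopamine, beside medians over all probe sets of 0.01 and 0.02. These 3 comparisons share arrays and are not independent of each other. Because the factors were chosen with earlier results of these data known, their counts are not those of an independently chosen set. In whole ducts, fewer cells of a type and less RNA per cell cannot be told apart.

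**Figure D1:**
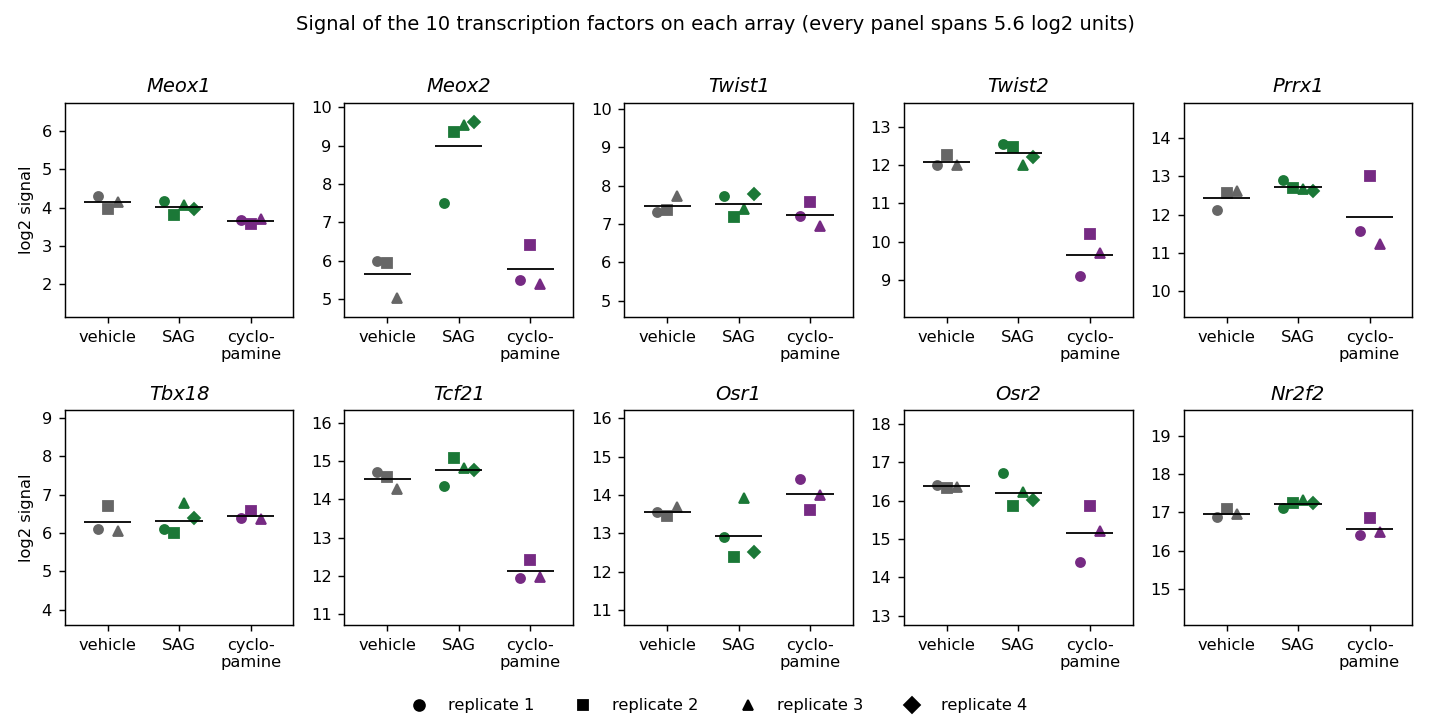
Log2 signal (vertical axis) of each of the 10 factors on every array, by group (horizontal axis), with a black line at the group mean and a symbol for each replicate number; every panel spans the same number of log2 units. Meox2 stands higher on the SAG arrays (7.50 to 9.60) than on the vehicle arrays (5.03 to 6.0), and Twist2 and Tcf21 stand lower on the cyclopamine arrays than on all others.

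Meox2, a homeobox factor known from somites, limb muscle and vascular cells, had signals of 6.0, 5.94 and 5.03 on the vehicle arrays. On SAG replicates 1 to 4 its signals were 7.50, 9.35, 9.54 and 9.60, and on the cyclopamine arrays 5.50, 6.42 and 5.39. Every SAG array lay above every vehicle and cyclopamine array, with SAG replicate 1 well below the other SAG arrays, while vehicle and cyclopamine arrays overlapped. Meox2 rose with SAG by 3.34 ± 0.49 (SE), 10.2-fold (95% confidence interval of the log2 change 2.26 to 4.43, limma adjusted p = 0.0142), the rank 4 rise among all probe sets. With cyclopamine it was at 0.12 ± 0.53 (interval -1.05 to 1.28, limma adjusted p = 0.938), an interval that includes a fall of 1 unit. The vehicle and cyclopamine signals lie next to the lower quartile of 5.19, where differences are understated, which limits the size of the rise, a possible fall with cyclopamine and the position of vehicle between the compounds. Without SAG replicate 1 the rise was 3.84 (limma adjusted p = 0.000861). Leaving out vehicle replicate 2 or 3 ended the call against vehicle (limma adjusted p = 0.0599 and 0.0604), and SAG against cyclopamine (3.23 ± 0.49, 9.36-fold, limma adjusted p = 0.00171) passed with any of the 10 arrays left out.

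SAG replicate 1 was also the lowest SAG array for the targets Hhip (16.01 against 16.54 to 16.81) and Ptch1 (15.40 against 15.74 to 16.28), but not for Gli1 (13.41 against 13.24 to 13.61). The same array was high in genes of steroid-making cells. Cyp17a1, a steroid hydroxylase gene, was at 8.03 on it against 3.55 to 3.85 on the other SAG arrays, and Hsd3b1, a steroid dehydrogenase gene, at 10.04 against 5.96 to 6.64. Hsd3b1 was also higher on vehicle replicate 3 (7.95, against 5.87 and 5.59), the vehicle array with the lowest Meox2. Vehicle replicate 3 was the lowest vehicle array for the hedgehog targets too. It had Gli1 at 11.43 (against 12.63 and 11.67), Ptch1 at 13.95 (14.49 and 14.58) and Hhip at 11.09 (12.08 and 12.67). The part of these differences between arrays in the values of Meox2 was not tested. As given above, the rise of Meox2 with SAG was 3.84 without SAG replicate 1.

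Meox1, the paralogue of Meox2 and likewise a somite factor, was near the bottom of the scale in all groups. Its means were 4.14 ± 0.17 (SD, n = 3) with vehicle, 4.01 ± 0.15 (n = 4) with SAG and 3.65 ± 0.08 (n = 3) with cyclopamine, all under the lower quartile given above, where array signals understate differences. The 3 cyclopamine arrays (3.56 to 3.71) lay below all vehicle arrays (3.96 to 4.31), and the difference did not pass (-0.48 ± 0.14, limma adjusted p = 0.0826). SAG changed its mean by -0.13 ± 0.13 (interval -0.42 to 0.16), with overlapping arrays.

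Prrx1, a paired-type homeobox factor of limb and craniofacial mesenchyme and of fibroblasts, had signals of 12.13, 12.56 and 12.62 with vehicle, 12.90, 12.70, 12.67 and 12.63 with SAG, and 11.59, 13.00 and 11.24 with cyclopamine. Cyclopamine replicate 2 was the highest of all 10 arrays and the other cyclopamine arrays were the lowest of the 10. The difference of cyclopamine from vehicle was -0.50 ± 0.36 and did not pass (limma adjusted p = 0.510). Without cyclopamine replicate 2 it was -1.02 (limma adjusted p = 0.0117), and SAG against cyclopamine moved from 0.78 (adjusted p = 0.189) to 1.31 (0.000942). In each of these comparisons that was the 1 fit of 10 with an array left out that passed. Over those fits the difference was as small as -0.15 against vehicle and 0.43 between the compounds (limma adjusted p up to 0.888 and 0.511). With array weights SAG against cyclopamine was 0.97 (limma adjusted p = 0.0462). SAG arrays lay above all vehicle arrays by a narrow margin, at 0.29 ± 0.34 (interval -0.46 to 1.04). The paralogue Prrx2, looked at after these values were seen, was also highest on cyclopamine replicate 2 (10.98, against 9.22 and 8.24 on the other cyclopamine arrays).

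Twist2, a bHLH factor that acts mainly as a repressor in dermal and other connective tissue precursors, had signals of 12.01, 12.27 and 12.001 with vehicle and 12.55, 12.49, 12.004 and 12.21 with SAG. On the cyclopamine arrays its signals were 9.10, 10.19 and 9.71, far below every other array. Twist2 fell with cyclopamine by 2.43 on the log2 scale (SE 0.25, interval -2.99 to -1.87, 5.37-fold lower, limma adjusted p = 0.000658). SAG and vehicle arrays overlapped (0.22 ± 0.24, interval -0.30 to 0.74, limma adjusted p = 0.801). With each array left out in turn, the fall was between -2.69 and -2.14 and passed each time. SAG against cyclopamine was 2.65 ± 0.24 (6.26-fold, limma adjusted p = 7.20e-05).

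Tcf21, a bHLH factor of the mesenchyme of kidney, lung, heart and gonad, had signals of 14.73, 14.58 and 14.27 with vehicle, 14.35, 15.09, 14.83 and 14.76 with SAG, and 11.96, 12.42 and 11.99 with cyclopamine. As with Twist2, the cyclopamine arrays stood apart below the other arrays, and the vehicle and SAG arrays overlapped. The fall with cyclopamine was -2.40 ± 0.21 (interval -2.87 to -1.94, 5.29-fold lower, limma adjusted p = 0.000210), and with any array left out it passed (at most 0.00212). With SAG the difference of Tcf21 from vehicle was 0.23 ± 0.20 (interval -0.20 to 0.66), and SAG against cyclopamine was 2.64 ± 0.20 (6.22-fold, limma adjusted p = 2.11e-05). Among all probe sets the falls of Twist2 and Tcf21 with cyclopamine held ranks 69 and 70. On cyclopamine replicate 2 both were higher than on the other cyclopamine arrays.

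Twist1, the paralogue of Twist2 and a bHLH factor of cranial and limb mesenchyme, moved little. Its means were 7.47 ± 0.23 (SD, n = 3) with vehicle, 7.52 ± 0.29 (n = 4) with SAG and 7.24 ± 0.32 (n = 3) with cyclopamine, and the arrays of all groups overlapped. The interval of its change was -0.39 to 0.50 with SAG and -0.70 to 0.25 with cyclopamine, so a fall as large as that of Twist2 lies outside it.

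**Figure D2:**
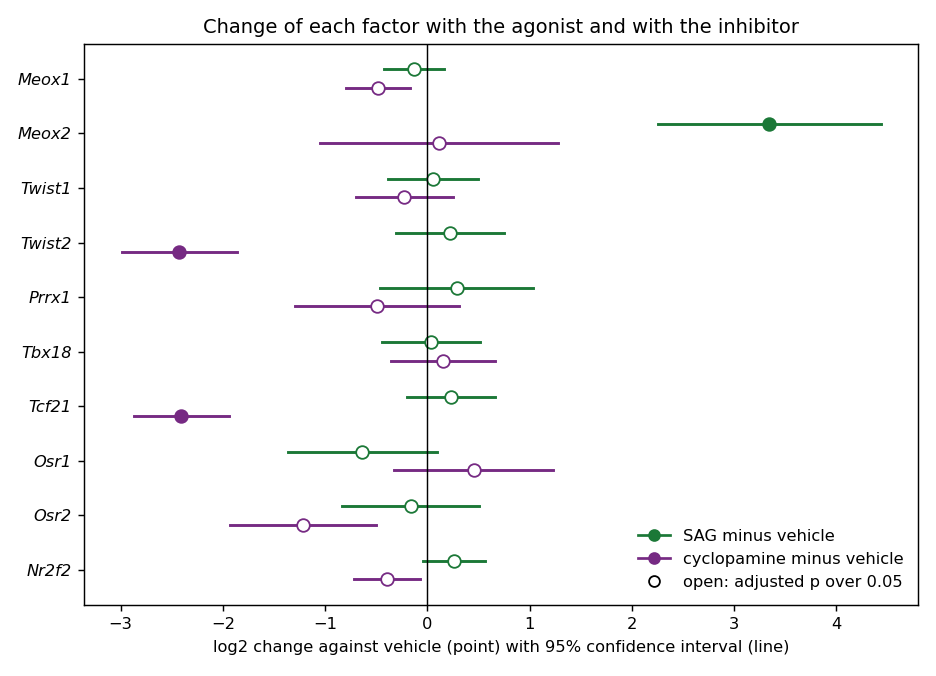
Log2 change of each factor against vehicle (points; horizontal axis) with its 95% confidence interval (lines), in green for SAG and in purple for cyclopamine; filled points passed limma at an adjusted p of 0.05. Only Meox2 is filled for SAG (3.34) and only Twist2 (-2.43) and Tcf21 (-2.40) for cyclopamine, while Osr1 and Osr2 lie on opposite sides of 0 with cyclopamine (0.45 and -1.22).

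The bases upstream of the transcription starts of these 3 factors are shown because they are the ones that changed against vehicle. They come from RefSeq (build GRCm38.p6), which held windows for 7 of the 10 factors here (Meox2, Twist1, Twist2, Prrx1, Tbx18, Tcf21 and Nr2f2). Each run gives the 250 bases before the start, 5′ to 3′ on the strand of the gene, and capitals mark matches on either strand to the E-box CANNTG, the CCAAT box CCAAT or the TATA core TATAA.
Meox2 (chr12:37108290-37108539, plus strand): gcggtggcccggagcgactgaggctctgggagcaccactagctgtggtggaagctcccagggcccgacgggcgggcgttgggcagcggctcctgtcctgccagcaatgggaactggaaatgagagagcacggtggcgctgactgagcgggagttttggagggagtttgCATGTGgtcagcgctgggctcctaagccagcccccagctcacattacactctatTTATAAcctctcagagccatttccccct
Twist2 (chr1:91801211-91801460, plus strand): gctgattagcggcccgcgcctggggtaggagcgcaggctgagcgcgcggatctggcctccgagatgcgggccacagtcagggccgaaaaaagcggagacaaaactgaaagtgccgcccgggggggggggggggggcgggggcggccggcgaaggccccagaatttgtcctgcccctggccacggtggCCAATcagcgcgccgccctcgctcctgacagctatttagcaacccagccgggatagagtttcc
Tcf21 (chr10:22820144-22820393, minus strand): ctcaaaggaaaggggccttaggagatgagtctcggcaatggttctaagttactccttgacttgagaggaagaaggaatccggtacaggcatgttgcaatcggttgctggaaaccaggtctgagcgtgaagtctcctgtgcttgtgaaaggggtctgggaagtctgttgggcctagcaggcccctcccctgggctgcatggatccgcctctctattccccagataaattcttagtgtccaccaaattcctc

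In Meox2 the capitals are an E-box that begins at position -82 and a palindromic TATA core whose matches begin at -28 and -27, counted from the start of transcription. Twist2 has a CCAAT box at -63, and the Tcf21 window holds none of these motifs. The GLI consensus GACCACCCA was searched on both strands in the 300 bases from 250 before to 50 after the start, and 0 of the 7 factors held it, as against 0.253% of 32851 such windows of all genes. Its first 7 bases, GACCACC, which overlap it and were chosen after the Meox2 sequence had been seen, occurred in 1 of the 7, in Meox2 at position 17 after the start, and in 2.8% of all windows. E-boxes occurred in 3 of the 7 (Meox2, Tbx18 and Nr2f2) and in 72.3% of all windows, CCAAT boxes in 4 and 37.4%, and TATA cores in 2 and 24.9%. These are matches of letters in short windows and say nothing on binding.

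Tbx18, a T-box factor of the mesenchyme around the ureter, where smooth muscle forms, gave 6.10, 6.71 and 6.05 with vehicle, 6.12, 6.004, 6.79 and 6.39 with SAG and 6.40, 6.57 and 6.36 with cyclopamine. The arrays of all groups overlapped. Its change was 0.04 ± 0.22 with SAG (interval -0.44 to 0.51) and 0.16 ± 0.23 with cyclopamine (interval -0.35 to 0.66).

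Osr2, an odd-skipped zinc finger factor of intermediate mesoderm derivatives, palate and limb, had signals of 16.42, 16.33 and 16.37 with vehicle and 16.72, 15.87, 16.24 and 16.01 with SAG. On the cyclopamine arrays they were 14.39, 15.87 and 15.21, all below every vehicle and SAG array, with replicate 2 only just below the lowest SAG array. SAG against cyclopamine was 1.05 ± 0.30 (2.08-fold, limma adjusted p = 0.0488). That call ended in 9 of the 10 fits with an array left out (0.0573 to 0.152). The exception was the fit without cyclopamine replicate 2, where the difference was 1.41 (adjusted p = 0.00599). It also ended with a further quantile normalization (adjusted p = 0.0505) and with only the SAG and cyclopamine arrays in the fit (0.0992). Cyclopamine against vehicle (-1.22 ± 0.32, limma adjusted p = 0.0596) did not pass, and without cyclopamine replicate 2 it was at -1.57 (0.00973). That was the 1 fit of 10 with an array left out that passed, and over those fits the change was as small as -0.83 (limma adjusted p up to 0.158). With all arrays, cyclopamine against vehicle passed under an intensity-dependent prior variance (0.0389) and under array weights (-1.39, 0.0235).

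Osr1, its paralogue and an early factor of intermediate mesoderm from which nephric duct and kidney derive, ran the other way in its means. Its signals were 13.55, 13.46 and 13.70 with vehicle, 12.89, 12.39, 13.92 and 12.53 with SAG, and 14.43, 13.62 and 14.01 with cyclopamine. SAG replicate 3 lay above all vehicle arrays and the other SAG arrays below them, so the groups overlapped in each comparison. SAG against cyclopamine was -1.09 ± 0.33 and did not pass (limma adjusted p = 0.0592). Without SAG replicate 3 the difference was -1.42 (adjusted p = 0.00342), and without cyclopamine replicate 2 it was -1.29 (0.0430). With all arrays it passed under an intensity-dependent prior variance (0.0426) but not under array weights (-1.10, 0.0926). The changes against vehicle were -0.63 ± 0.33 with SAG and 0.45 ± 0.35 with cyclopamine (limma adjusted p = 0.536 and 0.539).

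Nr2f2, also called COUP-TFII, is an orphan nuclear receptor of mesenchyme, veins and the stroma of the reproductive tract, where it is known to keep the Wolffian duct from persisting in female embryos. It had signals of 16.89, 17.08 and 16.95 with vehicle, 17.12, 17.24, 17.32 and 17.25 with SAG and 16.40, 16.85 and 16.48 with cyclopamine. The 3 groups did not overlap, with the order cyclopamine, vehicle, SAG, although vehicle replicate 1 lay only just above cyclopamine replicate 2. Nr2f2 was higher with SAG than with cyclopamine by 0.65 ± 0.14 (1.57-fold, limma adjusted p = 0.0102), and this passed with any array left out (at most 0.0485). Neither compound passed against vehicle (SAG 0.26 ± 0.14, adjusted p = 0.540; cyclopamine -0.39 ± 0.15, adjusted p = 0.170). Without cyclopamine replicate 2 the fall with cyclopamine was -0.53 (limma adjusted p = 0.0475).

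Whether vehicle cultures lay midway between the agonist and the inhibitor was asked in the same fit, as vehicle minus the average of the SAG and cyclopamine means. Of the 10 factors, 1 lay above that midpoint and 9 did not pass, against 0.27% of probe sets above it. Tcf21 was 1.09 ± 0.18 above the midpoint (limma adjusted p = 0.0337), that is, vehicle lay near SAG. The value for Twist2 was 1.10 ± 0.21 (adjusted p = 0.0787), and for Meox2, where vehicle lay near cyclopamine, -1.73 ± 0.45 (adjusted p = 0.171). These calls hung on individual arrays. That of Tcf21 ended in 7 of the 10 fits with an array left out, namely each vehicle array, SAG replicates 3 and 4 and cyclopamine replicates 1 and 3 (0.0631 to 0.213). Among the fits with 1 array left out, Twist2 passed only without cyclopamine replicate 2 (0.0158) and Meox2 only without SAG replicate 1 (0.0254). Their limma adjusted p in the other fits ran up to 0.361 and 0.453. For Nr2f2 the value was 0.07 ± 0.12 (interval -0.21 to 0.34).

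Within the paralogue pairs, the change of one member was set against that of the other on the same arrays by an exact two-sided permutation test, for 3 pairs in 3 comparisons (9 tests). No p can fall below 0.0571 with 4 against 3 arrays or below 0.1 with 3 against 3, so the design cannot reach 0.05. Meox2 rose by 3.47 more than Meox1 with SAG against vehicle (exact permutation p = 0.0571, the smallest possible; adjusted over the 9 tests 0.128). With cyclopamine against vehicle, Twist2 moved by -2.20 relative to Twist1 and Osr2 by -1.67 relative to Osr1 (exact permutation p = 0.1 for each, the smallest possible; adjusted 0.15). SAG against cyclopamine gave differences of 2.37 for Twist2 minus Twist1 and 2.14 for Osr2 minus Osr1 (exact permutation p = 0.0571 for each; adjusted 0.128). Twist2 minus Twist1 with SAG against vehicle was 0.17 (exact permutation p = 0.629; adjusted 0.629). The remaining values, with exact permutation p of 0.0571, 0.229 and 0.5 (adjusted 0.128, 0.294 and 0.562), were 2.87 for Meox2 minus Meox1 in SAG against cyclopamine, 0.47 for Osr2 minus Osr1 with SAG and 0.60 for Meox2 minus Meox1 with cyclopamine. For Meox1 a smaller change can come from its low signal.

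Other mesenchymal transcription factors, 31 of 33 listed being measured under a name, had a median change of -0.19 with SAG and -0.17 with cyclopamine. With SAG 2 rose and 29 did not pass: Foxd1, a forkhead factor of kidney stroma (1.76 ± 0.23, limma adjusted p = 0.00739), and Foxc2, a forkhead factor of mesoderm and lymphatics (1.68 ± 0.23, adjusted p = 0.0106, or 0.0676 without vehicle replicate 2). With cyclopamine 2 fell, Heyl, a Notch target of vascular smooth muscle (-1.93 ± 0.20), and the zinc finger gene Tshz2 (-1.02 ± 0.12), and 1 rose, Ebf2, known from adipose precursors (1.79 ± 0.26), each with limma adjusted p at or under 0.00435. Between SAG and cyclopamine 5 were higher, 3 lower and 23 did not pass, Foxc2 (2.48 ± 0.23), Foxd1 (2.27 ± 0.23), Tshz2 (1.11 ± 0.11) and Ebf2 (-2.17 ± 0.24) having the smallest p. With vehicle Foxd1 averaged 5.17 and Foxc2 5.55, and with cyclopamine 4.67 and 4.75. These means lie next to or under the lower quartile of 5.19, where differences are understated, which limits the sizes given. Over all probe sets, 0.45% rose and 0.279% fell with SAG, and 2.17% rose and 2.95% fell with cyclopamine. With SAG against cyclopamine 5.42% were higher and 5.92% lower. The list was not tested as a set.

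The bHLH partners and inhibitors of Twist and Tcf21 (the E proteins Tcf3, Tcf4 and Tcf12, the Id proteins that block dimers with them, and related factors) gave no call. Of 12, 0 passed limma in any of the pairwise comparisons. At an unadjusted p under 0.05 there were 2 with SAG, 3 with cyclopamine and 1 between the compounds. Over all 22206 probe sets, an unadjusted limma p of 0.0447 held rank 2226 with SAG. With cyclopamine 0.0488 held rank 4130, and between the compounds 0.0418 held rank 4906. An unadjusted p under 0.05 was thus frequent over the whole array, which bears on such counts here and in the lists below. The E proteins were at -0.06 to -0.14 with SAG and at -0.06 to -0.37 with cyclopamine. Among the 4 Id genes, Id1 was at -1.0 ± 0.31, Id2 at -0.95 ± 0.35, Id3 at -0.03 ± 0.23 and Id4 at -0.49 ± 0.35 with cyclopamine (limma adjusted p 0.103 to 0.960). With SAG these genes were also below vehicle, Id1 at -0.64 ± 0.29, Id2 at -0.66 ± 0.33, Id3 at -0.65 ± 0.22 and Id4 at -0.20 ± 0.33 (limma adjusted p 0.272 to 0.878). Bhlhe41, a bHLH repressor gene, was at 0.98 with cyclopamine and 1.15 with SAG (limma adjusted p = 0.156 and 0.190).

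Stromal receptor and matrix genes, 14 of 15 measured under a name, gave 7 falls, 1 rise (S100a4, a calcium-binding protein gene, 1.65) and 6 that did not pass with cyclopamine, with a median of -0.62. Thy1, a fibroblast surface glycoprotein (-3.06 ± 0.39), Postn, periostin (-2.04 ± 0.37), the collagen gene Col1a1 (-0.76 ± 0.14) and Lum, lumican (-0.75 ± 0.14), had the smallest p among those that fell (limma adjusted p 0.00223 to 0.0125). With SAG their median was 0.35 and 0 of 14 passed limma, 6 being at an unadjusted p under 0.05. Between the compounds 11 were higher with SAG and 3 did not pass. Over all probe sets 2.95% fell and 2.17% rose with cyclopamine, and 5.42% were higher with SAG than with cyclopamine. Per array, the mean of this list relative to vehicle was 0.28 to 0.45 with SAG and -0.85, -0.41 and -0.82 on cyclopamine replicates 1 to 3.

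Some markers of other cells in the explant moved with the compounds as well. Over all probe sets 2.17% rose and 2.95% fell with cyclopamine, and 0.45% rose and 0.279% fell with SAG. Of 11 smooth muscle genes 8 fell and 3 did not pass with cyclopamine (list mean per array -2.70 to -2.20, against -0.30 to 0.19 with vehicle). With SAG 0 of 11 passed limma (6 at an unadjusted p under 0.05), and the list mean of each SAG array, -0.61 to -0.40, lay below those of all vehicle arrays. Of 15 duct epithelium markers 7 rose and 8 did not pass with cyclopamine (0.63 to 1.32 per array), and 2 fell and 13 did not pass with SAG (-1.40 to -0.75, against -0.45 to 0.56 with vehicle). With cyclopamine the nephric duct genes Ret (-1.55 ± 0.75) and Lhx1 (-0.90 ± 0.27) went the other way without passing (limma adjusted p = 0.302 and 0.0845), and the rest of the list had positive changes. Among 11 endothelial markers 1 fell, among 11 macrophage markers 2 rose, and among 9 markers of the coelomic lining 1 rose with cyclopamine. The macrophage changes ran in both directions, from -0.88 to 2.70. So few calls in these short lists are not read as a result about those cells. Of 10 genes of the somite and skeletal muscle lineage, in which Meox2 is best known, 0 passed limma with SAG. The 3 at an unadjusted p under 0.05 were Mymk (0.80) and Actn2 (0.60), above vehicle, and Des (-0.76), below it. The list mean per SAG array was -0.05 to 0.22 beside -0.19 to 0.11 for vehicle. It averages these opposite changes and includes 4 genes below the lower quartile, where differences are understated. Of 7 genes of gonad and adrenal steroid cells, 1 fell with cyclopamine and 0 passed limma with SAG (1 at an unadjusted p under 0.05), the SAG group being spread by replicate 1 as given above. Of 5 nerve and glia genes, 0 passed limma with either compound (1 at an unadjusted p under 0.05 with SAG and 0 with cyclopamine). With SAG, 0 of 11 endothelial, 0 of 11 macrophage and 0 of 9 coelomic lining markers passed limma (1, 0 and 1 at an unadjusted p under 0.05). The part of cell makeup in the changes of Meox2, Twist2 and Tcf21 was not tested.

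**Figure D3:**
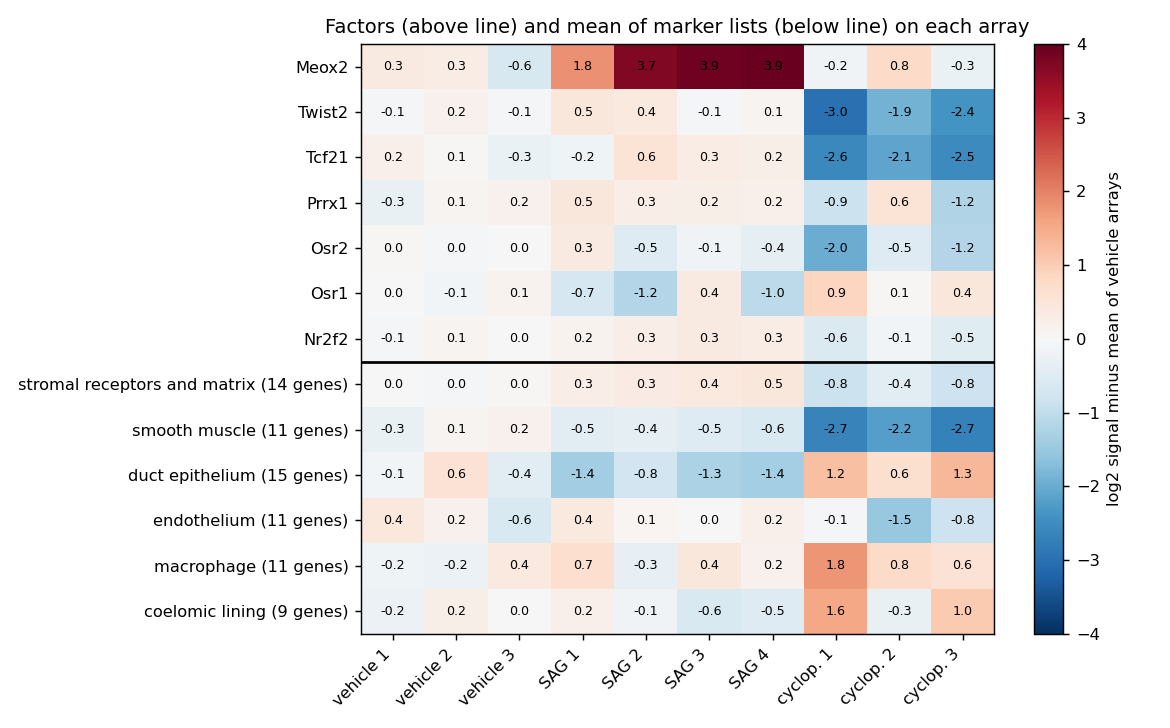
Log2 signal minus the mean of the vehicle arrays (colour and printed value) for 7 of the factors (rows above the line) and for the mean of 6 marker lists (rows below it) on each array (columns). On cyclopamine replicate 2 the stromal, smooth muscle and duct epithelium lists and Prrx1, Osr2, Twist2 and Tcf21 lie nearer to vehicle, or past it, than on the other cyclopamine arrays.

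Cyclopamine replicate 2 was nearer to vehicle than the other cyclopamine arrays in the stromal list (-0.41), the smooth muscle list (-2.20 against -2.67 and -2.70) and the duct epithelium list (0.63 against 1.21 and 1.32). Its endothelial list was the lowest of the cyclopamine arrays (-1.52 against -0.08 and -0.84), and its coelomic lining list lay at -0.28 against 1.55 and 1.04. The mean of Gli1, Ptch1 and Hhip was -5.52 on it and -5.72 and -5.77 on the others, and Gli1 itself had signals of 5.37 on it and 4.56 and 4.99 on the others, near or below the lower quartile. Values of Prrx1, Osr2 and Nr2f2 without it are given with each gene.

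**Figure D4:**
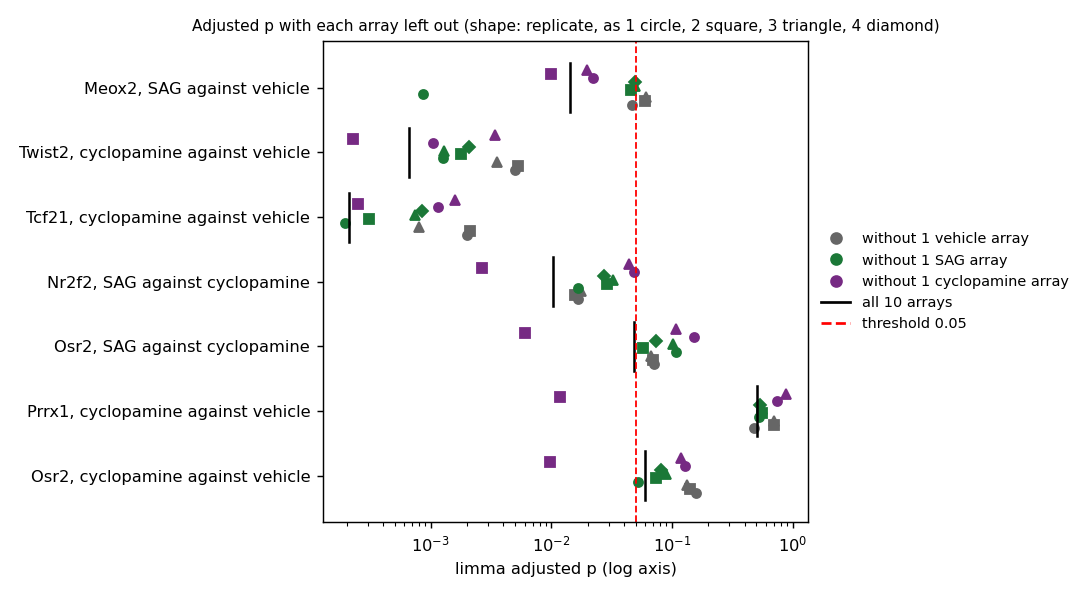
Limma adjusted p (horizontal log axis) for 7 comparisons of a factor, with all 10 arrays (black bar) and with each array left out (symbols; colour gives the group and shape the replicate); the red dashed line is the threshold of 0.05. Twist2 and Tcf21 stay left of the line whichever array is left out, and Osr2 between SAG and cyclopamine passes with 1 of 10 left out. Prrx1 with cyclopamine passes only when cyclopamine replicate 2 is left out (0.0117).

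For each factor called in a pairwise comparison, the named genes with the nearest pattern over the 10 arrays were found by the root mean square difference of log2 signals after each gene was centred on its own mean, among 18543 genes. Meox2 was nearest to C1qtnf3, a secreted C1q-domain protein (0.51), Sostdc1, an antagonist of BMP and Wnt ligands (0.56), and the growth factor gene Fgf5 (0.66), against an SD of Meox2 over the arrays of 1.83. C1qtnf3 was lowest on the same SAG array as Meox2 (8.87 on SAG replicate 1, 10.43 to 10.82 on the others). Having been picked for its nearness to Meox2 on these arrays, it adds no separate evidence on that array. Twist2 was nearest to Ltbp4, which encodes a matrix protein that binds latent TGF-beta (0.22), Smoc2, a matricellular protein gene (0.23), and Cped1 (0.24), with an SD of 1.27. Tcf21 was nearest to Acta2, smooth muscle alpha actin (0.23), Ltbp4 (0.27) and Atp8a2 (0.27), with an SD of 1.25, and Twist2 and Tcf21 differed from each other by 0.31. Osr2 was nearest to the homeobox gene Meis2 (0.25), then Cacnb2 and Cpt1c (0.28 each), with an SD of 0.68. Nr2f2 was nearest to the microfibril gene Mfap2, Gpsm1 and Wtip (0.11 each), with an SD of 0.31. These distances describe the same 10 arrays, whose group differences they share, and carry no test.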

How the data were processed

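RNA of 10 samples was measured on Affymetrix arrays, from 100 ng of total RNA labelled with the GeneChip WT Plus kit, the lowest accepted RNA integrity number being 7, per the labels' protocols. The deposited values are summarized log2 signals. The log2 base was inferred from their range (2.95 to 18.7), and for summarization, normalization, software and build nothing is given in the sources used here. Summarized signals compress differences near their lower end. Symbols came from GEO's platform annotation. A single symbol was kept for 19572 probe sets. The other 2634, without a symbol or with several, were treated as unnamed.

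A mean per group was fitted to all 22206 probe sets and 10 arrays with limma 3.58.1 in R 4.3.3 (lmFit and eBayes, 7 residual and 3.7 prior degrees of freedom), with two-sided tests. Calls are at a Benjamini-Hochberg adjusted p, taken over the whole array, of at most 0.05, and SEs are moderated. No filter was applied, and the script was tested on simulated data. Groups and replicate numbers came from the sample titles.

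The factors and lists were chosen with earlier results of these data known. The genes named were all 10 factors, of each list up to 4 called genes of smallest p per comparison (cell type lists are given by counts), the hedgehog targets, and the 3 nearest patterns of each called factor. Prrx2, the E proteins, the Id genes, Bhlhe41, Cyp17a1, Hsd3b1, Ret, Lhx1 and the somite genes were named after their values were seen. Alternatives were other scalings, filters, variance models, thresholds, a replicate block and left-out arrays.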

Additional observations from a re-analysis of the deposited data

Results flagged for a closer look

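Meox2 on SAG replicate 1 (7.50) stood apart from the other 3 SAG arrays (9.35 to 9.60). Its gap to the nearest of them was 0.881 of the range of the group, above Dixon's 95% critical value for 4 samples. Among the 10 factors this was the 1 SAG group that exceeded it, and chance gives about 1 in 20 groups. Groups of 3 arrays were not examined in this way.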

How the results depend on the processing

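Of the 9 calls of a factor in the 4 comparisons, 6 passed with each of the 10 arrays left out in turn; the other 3 were Meox2 with SAG against vehicle, Osr2 between SAG and cyclopamine and the midpoint value of Tcf21. The number of factors called with each array left out was 0 to 1 for SAG against vehicle, 2 to 5 for cyclopamine against vehicle, 4 to 7 for SAG against cyclopamine and 0 to 2 for vehicle against the midpoint. Without both SAG replicate 1 and cyclopamine replicate 2 it was 4 for cyclopamine against vehicle and 3 for the midpoint. At a threshold of 0.01 the counts were 0 for SAG against vehicle, 3 for SAG against cyclopamine and 0 for the midpoint, where 0.162%, 5.87% and 0.054% of all probe sets passed. At 0.10 they were 4 for cyclopamine against vehicle and 2 for the midpoint, where 8.36% and 0.581% passed. The midpoint count was 0 with arrays centred on their medians and 2 with an intensity-dependent prior variance or with array weights. For the fits with arrays left out, other scalings, other variance models or a replicate block, the share of all probe sets called was not computed. The counts of these fits can therefore not be read as a result about the factors. Correlations of the deviations from group means between arrays of the same number ran from -0.19 to 0.24, with 1 of 9 over 0.1, and in 3 of 18 checks an array correlated best with its own number, so the numbers were not taken as pairs. With the replicate number as a block, 0 factors were called for SAG against vehicle and 0 for the midpoint (limma: Meox2 with SAG 3.14, adjusted p = 0.0771; Osr2 between the compounds 1.12, 0.136; Tcf21 against the midpoint 1.09, 0.123). The block also ended the SAG calls of Gli1 (0.181), Ptch1 (0.0785), Foxd1 (0.0580) and Foxc2 (0.0558). In 23 cases, none of them a called result, an alternative turned the sign of a value near 0. With array weights these were Twist1 with SAG (-0.0099), Meox2 with cyclopamine (-0.0078) and Osr1 against the midpoint (-0.0021), and with the replicate block Twist1 with SAG (-0.032). Without SAG replicate 1 and cyclopamine replicate 2 they were Twist1 with SAG (-0.015), Meox2 with cyclopamine (-0.21), Tbx18 between the compounds (0.013; -0.28 to -0.014 with 1 array left out) and Osr1 against the midpoint (-0.017), while Twist1 and Prrx1 against the midpoint were at 0.20 and 0.40. With 1 array left out, the ranges that crossed 0 were -0.032 to 0.19 for Twist1 and -0.12 to 0.25 for Tbx18 with SAG, -0.21 to 0.31 for Meox2 with cyclopamine, and, against the midpoint, -0.045 to 0.17 for Twist1, -0.31 to 0.023 for Tbx18, -0.072 to 0.37 for Prrx1 and -0.010 to 0.26 for Osr1; that of Twist2 minus Twist1 with SAG was -0.0099 to 0.31. The cause was not tested. Signal near the lower end of the scale limits what can be said of Meox1, and of Meox2 without SAG.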
